A study of Mus musculus with 10 samples.

Results

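Small nucleolar RNAs and their relatives in the Cajal body are short, stable RNAs that steer enzymes to other RNAs. Box C/D RNAs, whose genes are named Snord, guide the methylation of riboses in ribosomal RNA, and box H/ACA RNAs, named Snora, guide the conversion of uridine to pseudouridine. Small Cajal body RNAs, named Scarna, guide the same kinds of modification on the small nuclear RNAs of the spliceosome, and a few box C/D and H/ACA RNAs take part in cutting the ribosomal RNA precursor instead. Most of these RNAs in mammals are cut out of the introns of host genes, many of which encode ribosomal proteins or ribosome assembly factors.

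These genes were examined on 10 Affymetrix expression arrays of mouse cortical astrocytes, 5 from the wild-type group, called Control, and 5 from the group labelled FMR1-KO, in which the gene for the RNA-binding protein FMRP is the one named as knocked out. All mice were 8 weeks old, and both groups carried EGFP as an astrocyte reporter, by which FACS had collected the cells. The sources used here give neither the promoter that drives EGFP nor whether an array holds RNA of 1 animal or of several. Replicates are called biological in the titles, so any p-value here reflects variation between samples of unknown origin. The number of arrays limits the precision.

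A gene was a member where an array probe set carried exactly 1 gene symbol and that symbol began with Snora, Snord or Scarna. The brightest probe set over all 10 arrays stood for the gene. This gave 78 members among 22180 genes, of which 47 are Snord, 26 Snora and 5 Scarna genes, from 81 probe sets. Another 46 probe sets with such a symbol also carried a further symbol and were left out, and 30 small RNA genes appear only on those. The well-known U3 and U14 RNAs and the imprinted Snord115 and Snord116 clusters are not among the 78 and are not analysed here. RefSeq gives 72 of the 78 as small nucleolar RNAs, the 5 Scarna genes as guide RNAs and Snord73b as a small nuclear RNA.

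Values are log2 signals, so a difference of 1 is a doubling. A gene entered the test where its mean over all arrays reached the 25th percentile of all probe sets, a log2 signal of 5.32. Of the members, 74 passed: 43 of 47 Snord, 26 of 26 Snora and 5 of 5 Scarna genes. The 4 that did not were Snord19, Snord85, Snord90 and Snord91a, with mean signals between 4.87 and 5.18. Mean signals of the tested Snord genes ran from 5.33 to 10.7, those of the Snora genes from 5.71 to 11.3 and those of the Scarna genes from 5.48 to 10.4. Signals of different probe sets depend on their probes and are not compared with each other as amounts of RNA.

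The samples differed in ways that bear on every comparison. Fmr1 signal was 8.04 ± 0.26 (SD, n = 5) for Control and 8.22 ± 0.15 (SD, n = 5) for arrays labelled FMR1-KO, with an adjusted p of 0.704 in limma. The stretch of the gene that the allele removes is unknown here, so this probe set may not check the labels, and FMR1-KO below always means the arrays labelled so. Xist, expressed from the inactive X chromosome of females, reached 10.60 on Control 2 and 10.98 on Control 3, while the other 8 arrays stayed between 4.98 and 5.23. Uty, a gene of the Y chromosome, stood at 4.82 on Control 2 and 4.77 on Control 3. On the other 8 arrays, all FMR1-KO arrays among them, it lay between 7.64 and 8.30. The labels give no sex. All 12 astrocyte markers had higher means on FMR1-KO arrays, with a median difference of 0.44. Of them 4 had an unadjusted p under 0.05 in limma, where 4% of all genes tested were higher at that level. Their mean ran from 9.65 to 10.38 on Control and from 9.86 to 10.82 on FMR1-KO arrays. Of 12 microglia and macrophage markers 11 were tested, and all 11 had lower means on FMR1-KO arrays, with a median difference of -0.58. Their mean ran from 10.07 to 11.08 on Control and from 9.38 to 10.77 on FMR1-KO arrays, and it was lowest on Control 1, FMR1-KO 1 and FMR1-KO 2. Endothelial markers were lower in 4 of 5 cases, with a median of -0.39, and all 4 choroid plexus markers were lower, with a median of -0.29. Of 9 neuronal markers 7 were lower, with a median of -0.06, and of 5 oligodendrocyte markers 3 were, with a median of -0.02. At an unadjusted p under 0.05 in limma, 4 microglia, 2 endothelial and 2 neuronal markers were lower, where 3.53% of all genes tested were. No choroid plexus or oligodendrocyte marker was. None of the markers of any cell type passed the adjusted threshold in limma. In such sorted bulk material, fewer cells of a type and less RNA per cell cannot be told apart.

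Across the members no difference between the groups passed the test. With limma over 17712 genes and Benjamini-Hochberg adjustment, 0 of 74 members had an adjusted p under 0.05, as did 0 of all 17712 genes (0%), and the smallest adjusted p among the members was 0.654. An unadjusted p under 0.05 was found for 9 members, or 12.2% of the 74. Of these, 4 were higher on FMR1-KO arrays, where 4% of all genes tested were, and 5 were lower, where 3.53% of all genes were. No member had groups that did not overlap, against 0.965% of all genes tested. The values that follow are therefore a description of sizes, directions and spread, not of established changes.

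The box C/D and box H/ACA genes leaned differently. Among the 43 Snord genes 25 had higher and 18 had lower means on FMR1-KO arrays, with a median difference of 0.05 and a range from -0.78 to 1.48. Among the 26 Snora genes 6 were higher and 20 lower, with a median of -0.20 and a range from -0.84 to 0.55. Of the 5 Scarna genes 1 was higher and 4 were lower, with a median of -0.67. Over all genes tested the median was -0.01, with 8282 higher and 9430 lower. The lean of the Snord genes rested on few arrays. Without Control arrays 2 and 3, those with Xist signal, their median turned to -0.10, with 16 higher and 27 lower. Without the 3 arrays lowest in microglia markers it was 0.33, with 30 higher and 13 lower. The Snora median kept its sign in both, at -0.28 and -0.10. How far cell makeup or sex took part in these differences was not tested.

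**Figure D1:**
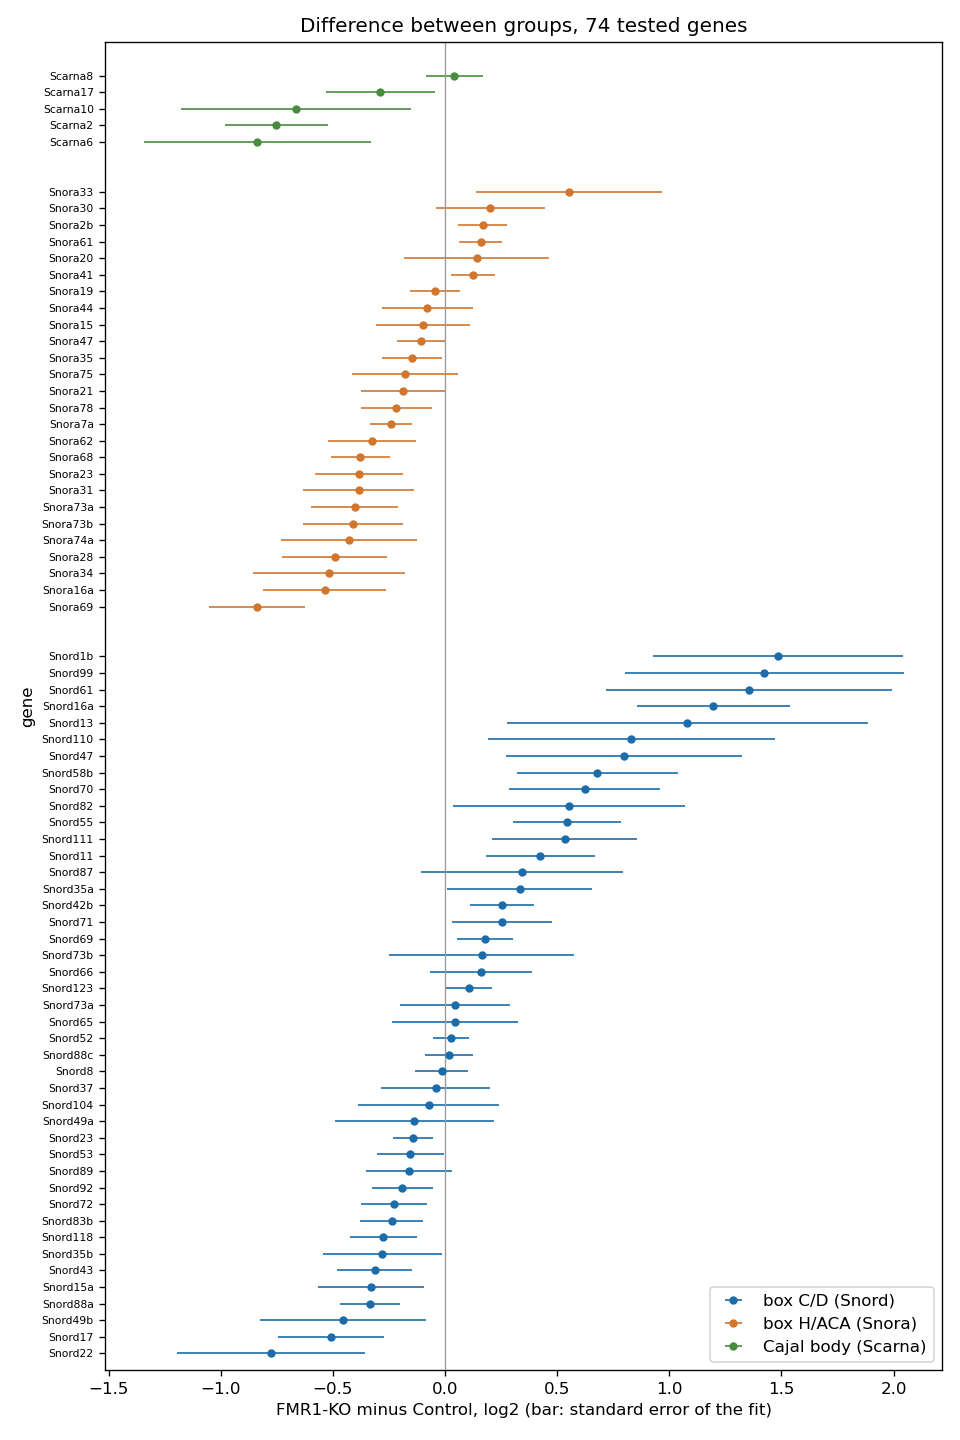
Difference of each of the 74 tested genes, mean of the FMR1-KO arrays minus mean of the Control arrays in log2 units on the x axis, with the standard error of the fit as the bar and genes sorted within class on the y axis. Box C/D genes reach from -0.78 to 1.48, while 20 of 26 box H/ACA genes and 4 of 5 Cajal body genes lie below 0.

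Arrays of the same group differed widely in these RNAs. The SD between arrays of a group, pooled over both groups, had a median of 0.46 over the Snord genes, 0.37 over the Snora genes and 0.46 over the Scarna genes. It was 0.24 over 244 tested microRNA genes, which are short RNAs too, and 0.18 over all genes tested. An SD above 0.5 was found for 19 of 43 Snord genes (44.2%) and 5 of 26 Snora genes (19.2%), against 4.51% of the microRNA genes and 3.02% of all genes. Of the 20 tested genes with the largest SD, 9 were members, although members make up 0.418% of the genes tested. This count, like the ranks given further on, was chosen after the values had been seen. The rank correlation of mean signal with SD was 0.46 over the 74 tested members, which share the same 10 arrays. The classes also differed in signal. The median of the mean signals was 7.45 for Snord, 6.98 for Snora and 6.37 for microRNA genes.

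**Figure D2:**
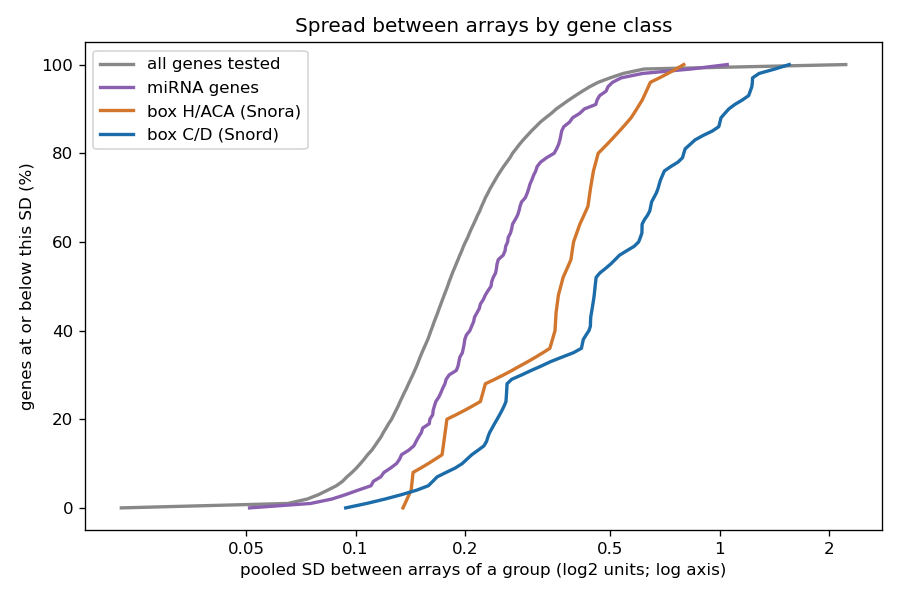
Share of genes, in percent on the y axis, whose pooled SD between arrays of a group lies at or below the log2 value on the logarithmic x axis, for all genes tested, microRNA genes, box H/ACA and box C/D genes. The box C/D curve lies farthest to the right, with a median SD of 0.46 against 0.18 for all genes.

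Among the tested box C/D genes the smallest SD was that of Snord52, at 0.09, followed by Snord23, with 0.13. The mean signal of Snord52 was 5.39, close to the filter level of 5.32, so its small SD may not show a steady RNA. Snord23 ranged from 9.06 to 9.39 in the Control group and from 8.84 to 9.12 in the FMR1-KO group. At the other end was Snord13, the U13 RNA, which pairs with 18S ribosomal RNA and guides its acetylation, with an SD of 1.55. Its Control values were 9.50, 6.79, 6.25, 10.72 and 10.43, and its FMR1-KO values were 9.86, 8.71, 9.75, 10.23 and 10.55. It was low on Control 2 and 3, the arrays with Xist signal, and the groups overlapped. Only 1 of the 17712 genes had a larger SD than Snord13, which ranked 2.

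Many box C/D genes deviated on the same arrays. Each member's deviation from its own mean over the 10 arrays was taken, and the median over the class computed for each array. For the Snord genes it was lowest on Control 2 and FMR1-KO 2, both at -0.42, and on Control 3 at -0.26. It was highest on FMR1-KO 3 at 0.46 and on Control 5 at 0.39. Control 2 was among the 3 lowest arrays for 27 of 43 Snord genes, as was FMR1-KO 2, and Control 3 was so for 24. FMR1-KO 3 was among the 3 highest arrays for 29 of them. Low and high arrays thus occurred in both groups.

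The Snora genes shared this profile in part, while the Scarna genes ran against it on most arrays. FMR1-KO 2 was below 0 in all 3 classes, at -0.13 for the Scarna genes, and Control 1 was above 0 in all 3. On every other array the Snord and Scarna medians had opposite signs. They were 0.39 and -0.29 on Control 5, and 0.46 and -0.48 on FMR1-KO 3. Snora genes were highest on Control 1, where the median deviation was 0.57 and where 20 of 26 had 1 of their 3 highest values, and lowest on FMR1-KO 2 at -0.27. Scarna genes were highest on Control 1 at 0.88, Control 2 at 0.60 and FMR1-KO 1 at 0.47, and lowest on FMR1-KO 5 at -1.001. Control 2 was thus low for the box C/D genes and high for the Cajal body genes, and the array's median over the Snora genes lay near their mean, at 0.05.

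**Figure D3:**
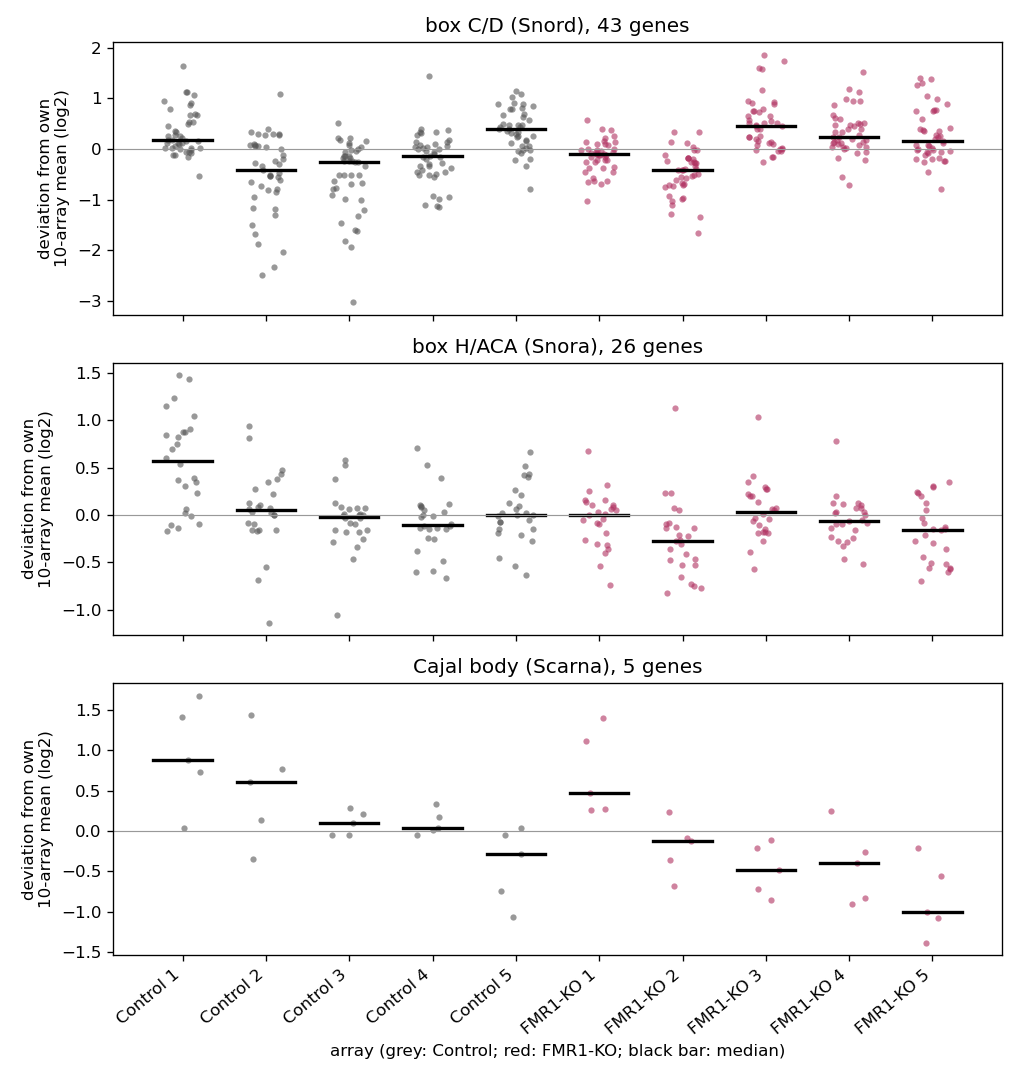
Deviation of each gene from its own mean over 10 arrays, in log2 units on the y axis, by array on the x axis, in separate panels for 43 box C/D, 26 box H/ACA and 5 Cajal body genes (points; black bars are medians). The box C/D median runs from -0.42 on Control 2 to 0.46 on FMR1-KO 3, whereas the box H/ACA median is highest on Control 1 at 0.57.

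The box C/D genes with the highest differences came first among the genes tested, and they were also among the most variable. By size alone Snord1b ranked 1, Snord99 ranked 2 and Snord61 ranked 3 of 17712 genes. By SD they ranked 12, 9 and 8. Snord genes held 7 of the 20 highest differences. Of the 20 lowest differences 4 belonged to members, with Snora69 at rank 5 from the bottom, Scarna6 at 6, Snord22 at 9 and Scarna2 at 11. None passed the threshold. Snord1b lies in Snhg16, a noncoding host, and has close relatives whose RNA its probes may also detect. Its Control values were 6.63, 4.66, 4.60, 5.60 and 7.43, and its FMR1-KO values were 6.52, 6.26, 8.39, 7.65 and 7.52. The FMR1-KO arrays were all above the Control mean, the groups overlapped, and the difference was 1.48 with a standard error of 0.56 and an adjusted p of 0.654 in limma.

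Snord99 gave Control values of 9.07, 6.21, 7.09, 7.55 and 9.22 and FMR1-KO values of 8.29, 7.85, 10.14, 10.05 and 9.92. Arrays 3, 4 and 5 of the FMR1-KO group lay above every Control array, and arrays 1 and 2 lay within the Control range. The difference was 1.42, with a standard error of 0.62. Snord61, inside the gene of the RNA-binding protein Rbmx, stood at 10.57, 7.42, 7.63, 8.31 and 9.91 on Control arrays. On FMR1-KO arrays it stood at 9.70, 8.52, 11.02, 10.63 and 10.75, a difference of 1.36 with a standard error of 0.64. Again FMR1-KO 3, 4 and 5 exceeded all Control arrays, of which Control 1 came closest.

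The smallest unadjusted p among the higher members belonged to Snord16a, which lies in the ribosomal protein gene Rpl4. Its values were 8.90, 7.81, 7.38, 8.52 and 9.28 on Control and 9.20, 8.95, 10.14, 9.85 and 9.75 on FMR1-KO arrays. The difference was 1.20, with a standard error of 0.34, an unadjusted p of 0.00437 and an adjusted p of 0.654 in limma. Only Control 5 reached into the FMR1-KO range. Snord55 was the remaining higher member at an unadjusted p under 0.05, at 10.10 ± 0.56 (SD, n = 5) on Control and 10.65 ± 0.29 (SD, n = 5) on FMR1-KO arrays. Its groups overlapped, since Control 1 and Control 5 lay at 10.72 and 10.64.

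Snord13, Snord110 and Snord47 also had large positive differences, none at an unadjusted p under 0.05. Snord13 differed by 1.08 with a standard error of 0.80, Snord110, inside the gene of the box C/D core protein Nop56, by 0.83 with 0.64, and Snord47, inside Gas5, by 0.80 with 0.52. These differences leaned on the arrays with Xist signal. Without Control 2 and 3 the difference was -0.40 for Snord13, 0.13 for Snord110 and 0.37 for Snord47. It was 0.71 for Snord1b, 0.64 for Snord99, 0.53 for Snord61, 0.67 for Snord16a and 0.24 for Snord55. Without the 3 arrays lowest in microglia markers the values grew to 2.28 for Snord1b, 2.52 for Snord99, 2.48 for Snord61 and 1.66 for Snord16a. No member passed the threshold in either case, the smallest adjusted p being 0.893 in the first and 0.0656 in the second.

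Snord35a was the only member inside Rpl13a, a ribosomal protein gene that holds several box C/D RNAs. It differed by 0.33 with a standard error of 0.32, and by -0.08 without the arrays with Xist signal.

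Snord22, the U22 RNA of Snhg1, needed for the maturation of 18S ribosomal RNA, had the lowest Snord difference, at -0.78 with a standard error of 0.42. It stood at 10.90, 10.36, 9.78, 8.74 and 8.48 on Control arrays and at 9.64, 8.72, 9.0, 8.55 and 8.48 on FMR1-KO arrays. Every FMR1-KO array was below the Control mean, while Control 4 and 5 lay within the FMR1-KO range. Without Control 1 the difference was -0.46. Snord118, the U8 RNA, needed for the maturation of 5.8S and 28S ribosomal RNA, differed by -0.27 with a standard error of 0.15. Its adjusted p in limma was 0.671.

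Of the lower Snord genes 1 had an unadjusted p under 0.05. Snord88a stood at 6.12 ± 0.18 (SD, n = 5) on Control and 5.78 ± 0.26 (SD, n = 5) on FMR1-KO arrays, a difference of -0.34 with a standard error of 0.13. It has near-identical copies, so its value may hold signal of more than 1 gene. Snord17, the longest tested box C/D member at 221 bases, differed by -0.51 with a standard error of 0.24, and the low values were those of FMR1-KO 1 and 2, at 8.43 and 7.95. Without FMR1-KO 2 the difference was -0.29. The other 3 FMR1-KO arrays lay between 9.01 and 9.45, near the Control range of 9.13 to 9.55. Snord43, in Rpl3, differed by -0.31 with a standard error of 0.17.

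Among the box H/ACA genes the lowest difference was that of Snora69, which lies in the ribosomal protein gene Rpl39. It stood at 6.96, 7.05, 6.65, 5.87 and 6.14 on Control arrays and at 5.76, 5.37, 5.92, 5.84 and 5.60 on FMR1-KO arrays. All FMR1-KO arrays were below the Control mean, and Control 4 alone lay within their range. The difference was -0.84 with a standard error of 0.21, an unadjusted p of 0.00209, the smallest of any member, and an adjusted p of 0.654 in limma. It was -0.63 without the arrays with Xist signal and -0.64 without those lowest in microglia markers.

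Snora68 and Snora7a were the other Snora genes at an unadjusted p under 0.05. Snora68 stood at 7.04, 7.15, 6.75, 6.70 and 6.68 on Control and at 6.41, 6.14, 6.64, 6.71 and 6.53 on FMR1-KO arrays, a difference of -0.38 with a standard error of 0.13. Only FMR1-KO 4 reached the Control range. For Snora7a the Control values were 6.82, 6.46, 6.42, 6.53 and 6.52 and the FMR1-KO values 6.44, 6.29, 6.37, 6.15 and 6.30. This was a difference of -0.24 with a standard error of 0.09, with overlap through FMR1-KO 1.

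Snora73a and Snora73b, copies of the U17 RNA, which acts in cutting the precursor rather than in modifying it, both lie in Snhg3. They differed by -0.40 and -0.41, with standard errors of 0.19 and 0.22. Both had their highest value on Control 1, at 7.76 and 8.23, and every FMR1-KO array was below the Control mean. Without Control 1 the differences were -0.25 and -0.20. The copies are nearly alike, so their signals may not be independent. Snora28, in the translation factor gene Eif5, differed by -0.49 with a standard error of 0.23 and had a Control 1 value of 9.99, where the other Control arrays lay between 8.61 and 8.89. Without Control 1 its difference was -0.25. Snora34, in Kansl2, differed by -0.52 with a standard error of 0.34, and by -0.21 without Control 1.

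Higher Snora genes were few and small in difference, apart from Snora33. That gene, in Rps12, differed by 0.55 with a standard error of 0.42, and by 0.01 without the arrays with Xist signal. A dimmer probe set for Snora33, with a mean of 6.09 against 11.34, differed by -0.23, so its probe sets disagreed in sign. The remaining higher Snora genes with the smallest p were Snora61 at 0.16, Snora2b at 0.17, Snora41 at 0.13 and Snora30 at 0.20. Snora20 differed by 0.14 with a standard error of 0.32.

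Among the small Cajal body RNAs Scarna2, which guides methylation of the U2 small nuclear RNA, was the only 1 of 5 with an unadjusted p under 0.05. It stood at 10.70, 10.73, 10.07, 10.31 and 9.92 on Control arrays and at 10.23, 9.29, 9.76, 9.72 and 8.97 on FMR1-KO arrays. All FMR1-KO arrays were below the Control mean, with overlap through FMR1-KO 1. The difference was -0.75, with a standard error of 0.23 and an adjusted p of 0.654 in limma, and it lay between -0.91 and -0.60 when each array was left out in turn.

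Scarna6 stood at 9.46, 9.49, 8.33, 8.07 and 6.98 on Control arrays and at 9.16, 7.69, 7.19, 7.14 and 6.97 on FMR1-KO arrays, with a difference of -0.84 and a standard error of 0.51. Scarna10, the U85 RNA, which guides modification of the U5 small nuclear RNA, stood at 10.47, 9.39, 8.74, 8.97 and 8.04 on Control and at 10.18, 8.66, 8.07, 7.96 and 7.40 on FMR1-KO arrays. Its difference was -0.67 with a standard error of 0.51, and without Control 1 it was -0.33. Both genes were high on Control 1, Control 2 and FMR1-KO 1 and low on Control 5 and FMR1-KO 5, so the groups overlapped. Scarna17 differed by -0.29 with a standard error of 0.24, and its dimmer probe set by -0.39. Without Control 1 the Scarna17 difference was -0.10. Scarna8 differed by 0.04 with a standard error of 0.13.

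Most members lie inside host genes. In the RefSeq table for GRCm38.p6, 68 of the 78 lie inside exactly 1 other gene, 6 inside a pair of overlapping genes and 4 in none, namely Scarna2, Snord118, Snord13 and Snord89. The 68 belong to 54 hosts, 16 of them ribosomal protein genes. Of the tested members 56 had a tested single host. Member and host had the same sign of difference in 33 pairs and opposite signs in 23. The member's SD was the larger in 46 of the 56 pairs. The median SD was 0.44 over the 56 members and 0.18 over their 43 hosts. Host means were lower on FMR1-KO arrays for 31 of the 43 and higher for 12, with a median difference of -0.12. Among the 23 pairs of opposite sign, Rpl4 differed by -0.28 where its Snord16a differed by 1.20, and Rps12 by -0.55 where its Snora33 differed by 0.55. The dimmer probe set of Snora33 differed by -0.23, the sign of the host. The brighter one differed by 0.01 without the arrays with Xist signal.

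Of the hosts, 11 held at least 2 members, 25 members in all. Intronic RNAs are usually transcribed together with their host, so the start regions are shown for both hosts that hold a box C/D and a box H/ACA member of opposite sign. The sequences are from RefSeq for GRCm38.p6, with 60 bases before the start in lower case and the first 50 transcribed bases in capitals. The Snhg12 stretch is chr4:132308618-132308727 on the plus strand. That of Ncl, the gene of nucleolin, is chr1:86359406-86359515 on the minus strand.
Snhg12: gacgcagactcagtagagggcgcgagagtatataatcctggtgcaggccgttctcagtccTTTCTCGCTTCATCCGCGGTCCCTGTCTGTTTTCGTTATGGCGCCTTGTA
Ncl: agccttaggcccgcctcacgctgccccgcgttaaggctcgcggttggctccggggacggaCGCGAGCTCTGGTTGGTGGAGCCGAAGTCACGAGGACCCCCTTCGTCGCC

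Behind the Snhg12 start lie 4 members with different profiles. The host itself stood at 6.54 ± 0.20 (SD, n = 5) on Control and 6.40 ± 0.14 (SD, n = 5) on FMR1-KO arrays. Snora16a differed by -0.54 with a standard error of 0.27, and by -0.32 without Control 1. Snora44 differed by -0.08 with 0.20 and Snora61 by 0.16 with 0.10. Snord99, described above, differed by 1.42 with 0.62. On Control 2 Snord99 had its lowest value, 6.21, and Snora44 its second highest Control value, 8.00.

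**Figure D4:**
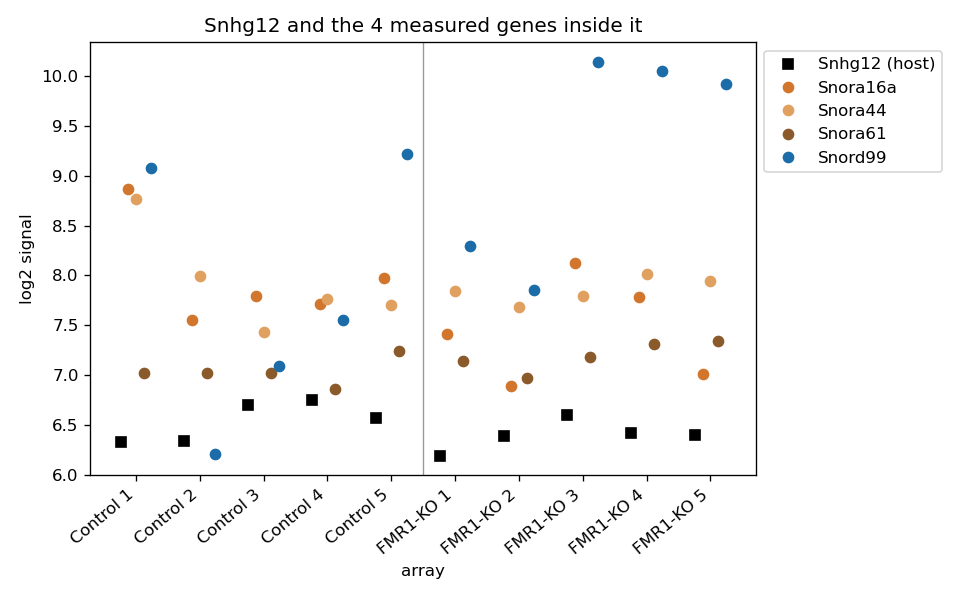
Log2 signal on the y axis of the noncoding host Snhg12 (squares) and of its 4 measured small RNA genes (circles) on each array on the x axis. The host stays between 6.19 and 6.75, while Snord99 runs from 6.21 on Control 2 to 10.14 on FMR1-KO 3.

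The Ncl start serves Snora75 and Snord82. Ncl stood at 8.59 ± 0.13 (SD, n = 5) on Control and 8.37 ± 0.20 (SD, n = 5) on FMR1-KO arrays. Snora75 differed by -0.18 with a standard error of 0.24. Snord82 had Control values of 11.86, 9.05, 10.05, 9.77 and 11.51 and FMR1-KO values of 11.12, 9.70, 11.47, 11.22 and 11.49, a difference of 0.55 with a standard error of 0.52. It was low on Control 2, Control 4 and FMR1-KO 2, and the difference was 0.20 without Control 2 and -0.05 without both arrays with Xist signal. In Nop58, which encodes a core protein of the box C/D particles and differed by -0.27, Snord11 differed by 0.43 and Snord70 by 0.62.

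RefSeq entries of the tested members ran from 48 to 248 bases, with a median of 68 for Snord and 118.5 for Snora genes. Some entries, such as the 61 bases of Scarna2, may cover only a stretch of the RNA. The rank correlation of length with the difference between groups was -0.52 over all 74 tested members, -0.31 over 43 Snord genes and -0.66 over 26 Snora genes. That of length with the SD was -0.17, -0.14 and 0.03. These are descriptions, since the genes share the same 10 arrays. Snord genes under 80 bases had higher means in 20 of 29 cases, with a median difference of 0.18, and those of at least 80 bases in 5 of 14, with a median of -0.15. Their median SDs were 0.53 and 0.40. Of the Snora genes 2 of 3 under 80 bases had higher means and 4 of 23 longer ones did. The 3 Scarna genes under 80 bases were all lower, with a median of -0.67. The division at 80 bases was chosen after the values had been seen. How cDNA amplification or probe design acts on short RNAs was not tested.

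**Figure D5:**
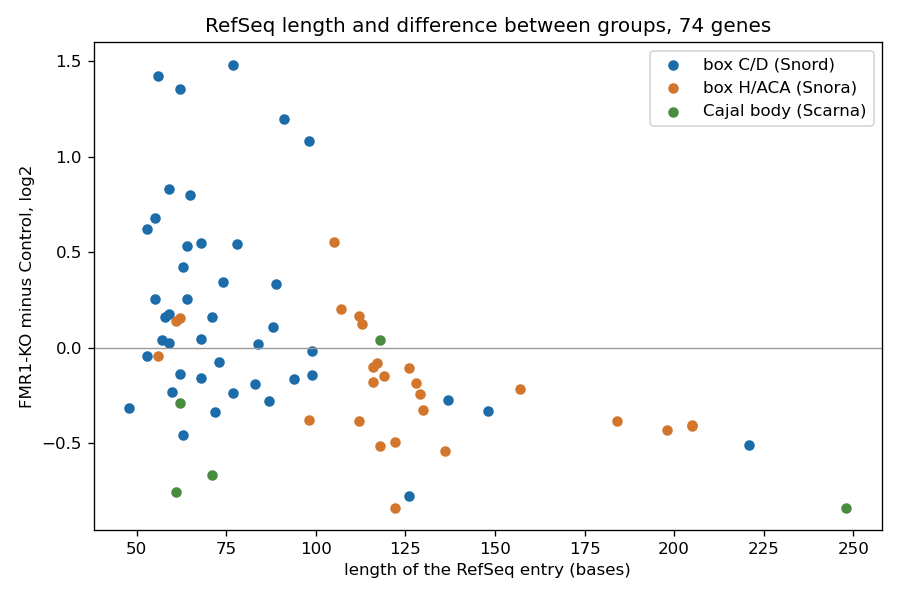
Length of the RefSeq entry in bases on the x axis against the difference between groups, FMR1-KO minus Control in log2 units, on the y axis, for the 74 tested genes coloured by class. The rank correlation is -0.52, and differences above 1 belong to box C/D genes of 56 to 98 bases.

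Signals of the genes for the proteins that carry these RNAs varied far less than signals of the small RNA genes. The arrays measured RNA, not protein. Of 4 core proteins of box C/D particles 3 were tested, with differences of 0.03 for Nop56, -0.27 for Nop58 and -0.17 for Snu13. Nop58 and Snu13 had an unadjusted p under 0.05 in limma, where 3.53% of all genes tested were lower at that level. All 4 core proteins of H/ACA particles had lower means on FMR1-KO arrays, as did 9430 of all 17712 genes. The largest difference was that of Nop10, at -0.39 with a standard error of 0.10 and an unadjusted p of 0.00163 in limma. Of these 4 only Nop10 was under 0.05. Dkc1, the pseudouridine synthase, differed by -0.01. Among 14 tested assembly factors 4 were higher and 10 lower, 1 of them, Naf1, at an unadjusted p under 0.05 with a difference of -0.25. Cajal body factors were higher in 3 and lower in 7 of 10 cases, and proteins of the U3 particle in 1 and 7 of 8. Noncoding hosts divided into 10 higher and 9 lower of 19, with Snhg15, at -0.22, alone at an unadjusted p under 0.05. None of these genes passed the adjusted threshold in limma, the smallest adjusted p being 0.654. The median SD of these lists, noncoding hosts included, lay between 0.14 and 0.16. It was 0.18 over all genes tested, so their spread was ordinary for these arrays.

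Other structural RNAs of the nucleus and cytoplasm had lower means where tested. Of 12 listed, 7 were tested, and all 7 had lower means on FMR1-KO arrays, as did 9430 of all 17712 genes. At an unadjusted p under 0.05 there were 2, where 3.53% of all genes were lower. None passed the adjusted threshold in limma, the smallest adjusted p being 0.654. Some differences were small beside their standard errors, such as -0.23 with 0.50 for Rny1 and -0.26 with 0.21 for Rny3. Rnu12, the U12 RNA of the minor spliceosome, stood at 7.96 ± 0.30 (SD, n = 5) on Control and 7.34 ± 0.25 (SD, n = 5) on FMR1-KO arrays. Rnu11, its partner in that spliceosome, differed by -0.30 with a standard error of 0.13. Rpph1, the RNA of ribonuclease P, differed by -1.29 with a standard error of 0.61. It was high on Control 1, Control 2 and FMR1-KO 1, at 12.37, 12.16 and 11.41, and low on Control 5 and FMR1-KO 5, at 9.05 and 8.96, the same arrays as for Scarna6 and Scarna10.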

How the data were processed

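The values the authors deposited are log2 signals per probe set for 33793 probe sets on 10 Affymetrix arrays. The scale was read from the values. GeneSpring 13.1.1 was the authors' software for the comparison, per the design text. How background, arrays and probe sets were corrected, normalized and summarised is not given in the sources used here. An Affymetrix whole-transcript kit amplified the cDNA, per the labels' protocols.

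Of the probe sets 23521 had 1 symbol in the platform annotation, 1814 several and 8458 none listed. The brightest probe set per gene was kept and those under the 25th percentile left out, which left 17712 genes. Differences are FMR1-KO minus Control, tested two-sided with limma 3.58.1 (lmFit, eBayes; R 4.3.3) without a block. Benjamini-Hochberg adjustment covered the 17712 genes, and the threshold was 0.05. The procedure was tested on simulated data in which genes varied independently. That simulation does not hold the deviations that many members share on the same arrays. Spread is the residual SD of that fit. Arrays correlated with each other between 0.903 and 0.990.

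Named genes are, per class, up to 5 per direction with the smallest p, the 3 most and 2 least variable, every Scarna gene, processing RNAs and those in Gas5, Snhg1, Snhg3, Snhg12 or Rpl13a, and core proteins. Some host partners were chosen after their values were seen. Members and lists were chosen with earlier results of these data known. RefSeq's gene table gave all 78 members' lengths and hosts. It holds no strand, so hosts were taken by span alone. A search of the members' first bases for box motifs was not run. Alternatives were other filters, normalizations and settings of the fit, a replicate block, the microglia mean as a covariate, and left-out arrays.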

Additional observations from a re-analysis of the deposited data

Results flagged for a closer look

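Each named gene and each class median was searched, within each group of 5 arrays, for an array whose gap to the nearest other exceeded 0.71 of the group's range, the Dixon limit for 5 values. Of 78 such searches 3 met it, no more than the 1 in 20 given by chance, and all 3 were Control 1. Snora28 stood at 9.99 there against 8.61 to 8.89 on the other Control arrays, a gap of 0.800 of the range. Snora7a stood at 6.82 against 6.42 to 6.53, a gap of 0.732. The median of the Snora genes stood at 7.71 against 6.94 to 7.14, a gap of 0.741. That median includes Snora28 and Snora7a, so the 3 are not independent. Control 1 was also the Control array lowest in microglia markers, at 10.07, and highest in astrocyte markers, at 10.38. The part of cell makeup in these values was not tested.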

How the results depend on the processing

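No member passed the adjusted threshold under any of the 21 alternatives. At an unadjusted p under 0.05 there were 9 of 74 members, 4 higher and 5 lower, and 7.53% of all genes. With array weights there were 20 members, 14 higher and 6 lower (8.18% of all genes). Without the 3 arrays lowest in microglia markers there were 25, 18 higher and 7 lower (8.90%). With the microglia mean as a covariate there were 23, 8 higher and 15 lower (4.53%). Leaving out each array in turn gave 6 to 18: 6 without Control 2 (5.62%) or FMR1-KO 4 (8.89%), 16 without Control 1 (13.7%) and 18 without FMR1-KO 2 (4.48%). With the replicate block there were 27, of which 8 were higher and 19 lower, and 11.7% of all genes. Correlations of same-numbered arrays' deviations ran from -0.0153 to 0.525, with 3 of 5 over 0.1, and 1 of the 10 arrays correlated best with its own number in the other group. The numbers were therefore not used as pairs. The Snord median difference ran from -0.001 to 0.173 and the Snora median from -0.27 to -0.15 when each array was left out.

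Of 40 members followed, 32 kept their sign under every alternative. Signs turned for Snora20 (-0.12 with array weights, -0.01 without FMR1-KO 1, -0.12 to 0.30 over the left-out arrays with the lowest value without FMR1-KO 2, -0.31 without the arrays lowest in microglia markers and -0.46 with the microglia covariate). They turned for Snora44 (0.10 with array weights, -0.20 to 0.13 over the left-out arrays with the highest value without Control 1, and 0.19 without the arrays lowest in microglia markers) and Snora75 (0.042 without those arrays and 0.047 with the covariate). Scarna8 was at -0.038 without Control 2, -0.022 without FMR1-KO 1 and -0.014 without FMR1-KO 4, and at 0.10 at most. Snord52 ran from -0.019 without FMR1-KO 4 to 0.070. Without the arrays with Xist signal Snord13 was at -0.40, Snord35a at -0.079 and Snord82 at -0.047. The causes were not tested. Groups of 5 arrays and an SD near 0.4 limit what could be called.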

Other observations

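A probe set left out of the count because it carries both Snord4a and its neighbour Tlcd1 differed by 0.37, from 6.03 ± 0.26 (SD, n = 5) on Control to 6.39 ± 0.67 (SD, n = 5) on FMR1-KO arrays. A pair of probe sets carries Tlcd1 alone. The brighter stood at 9.95, 8.97, 8.57, 7.96 and 9.02 on Control arrays and at 9.71, 9.03, 10.92, 10.31 and 10.84 on FMR1-KO arrays, a difference of 1.27, and was highest on FMR1-KO 3, 4 and 5, as Snord99 and Snord61 were. The other differed by 0.45 and was highest on FMR1-KO 1 and 2, at 10.07 and 10.49. Probe sets of Tlcd1 therefore had different profiles over the same arrays. These probe sets were chosen after their values were seen. The brighter Tlcd1 probe set was the Tlcd1 entry among the 17712 genes tested, of which none passed the adjusted threshold in limma. The others were not tested.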
